A study of Homo sapiens with 6 samples.

Results

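The enzymes that carry the molybdenum cofactor and the genes that make this cofactor were followed in INA-6, an established cell line of multiple myeloma (MM) that grows on interleukin-6 (IL-6). The set held 10 genes: the mitochondrial reductases MARC1 and MARC2 (now MTARC1 and MTARC2), the synthesis genes MOCS1, MOCS2, MOCS3 and GPHN, the cofactor sulfurase MOCOS, and the molybdoenzymes SUOX, XDH and AOX1. They were chosen by name from the probe annotation, and all 10 had 1 row of their own among 21921 genes on the arrays. The set was drawn around the rise of MARC2 in these same arrays, so the values of its members are given as a description and support no test.

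In all, 3 samples received UNC1999, an inhibitor of EZH2, and 3 received UNC2400, the inactive form used as its control. EZH2 is the enzyme of a Polycomb complex and places the repressive mark H3K27me3 on histones. Both compounds were given at 1 μM and for 120 hours, with a change of medium and compound after 72 hours, so dose and time were matched. The text of the study names DMSO as the control, whereas the labels name UNC2400, and the groups follow the labels. There was 1 array per sample, and samples of a group are labelled as biological replicates with no word on how the cultures were separated. All values come from 1 cell line at 1 time.

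Molybdenum acts in human enzymes only when bound to a pterin called the molybdenum cofactor. MOCS1 turns GTP into a cyclic precursor, the MOCS2 proteins insert sulfur that MOCS3 supplies, and gephyrin, encoded by GPHN, adds the metal. Sulfite oxidase (SUOX) and the MARC proteins use this cofactor, while xanthine dehydrogenase (XDH) and aldehyde oxidase (AOX1) need a further sulfur that MOCOS attaches. The MARC proteins sit on the outer mitochondrial membrane, where they reduce N-hydroxylated compounds with electrons from NADH that pass through a cytochrome b5 reductase and a cytochrome b5. Liver is the tissue best known for high activity of several of these enzymes.

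The unit throughout is the deposited log2 expression value, in which 1 unit is a 2-fold change. Array medians lay between 4.83 and 4.86, and dim rows can compress folds. Arrays of a group correlated at 0.9943 to 0.9977 across rows, and arrays of different groups at 0.9855 to 0.988. UNC1999 replicate 3 stood apart on the second principal component (score -19, against 12.4 and 7.13 for UNC1999 replicates 1 and 2, 13.3% of the variance). All 10 plasma cell markers checked were measured and called lower with UNC1999, against 7.32% of all genes. Some of them are among the genes that the study itself reported as lower. Their summed log2 values were 73.0 to 74.6 in the UNC1999 arrays and 84.8 to 86.1 in the UNC2400 arrays. The syndecan SDC1, a defining surface marker of plasma cells, averaged 6.57 with UNC1999 and 7.41 with UNC2400. Of 23 measured markers of hepatocytes, adipocytes, monocytes, T cells, erythroid cells and fibroblasts, only CD3E was called (mean 5.38 with UNC1999 and 5.07 with UNC2400). Of all genes, 16.5% were called in either direction. The whole T cell list summed to 19.9 to 20.1 with UNC1999 and 19.5 to 19.7 with UNC2400. The part of these shifts in the values below was not tested. All samples are of 1 cell line, and values of whole cultures do not show whether all cells changed or only some.

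MARC2, the reductase of the outer mitochondrial membrane, showed the largest difference of the 10 genes. It reached 6.60, 6.72 and 6.91 in the 3 UNC1999 arrays, against 4.88, 4.80 and 4.88 in the 3 UNC2400 arrays. The groups were far apart, since the lowest UNC1999 array stood 1.71 above the highest UNC2400 array and the arrays of a group spanned 0.31 with UNC1999 and 0.08 with UNC2400. MARC2 averaged 6.74 ± 0.16 in the UNC1999 arrays and 4.86 ± 0.04 in the UNC2400 arrays (mean ± SD, n = 3), a difference of 1.89 (95% interval 1.69 to 2.08) or 3.69-fold. Among all 21921 genes this was number 2 in the order of rises. With UNC2400 the row lay close to the median of all rows (4.85), so the fold may be a compressed one, which was not measured.

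MARC1, the paralogue with the same reaction, was higher as well. It read 5.11, 5.08 and 5.33 with UNC1999, against 4.64, 4.68 and 4.71 with UNC2400. The groups did not overlap, with 0.37 between the nearest arrays, and UNC1999 replicate 3 was the highest array for both reductases. The difference was 0.50 (95% interval 0.33 to 0.67), which is 1.41-fold, with means of 5.17 ± 0.14 in the UNC1999 arrays and 4.68 ± 0.04 in the UNC2400 arrays (SD, n = 3). With UNC2400 the row lay below the median of all rows, so this fold may be compressed too, and its size cannot be set against that of MARC2. Without UNC1999 replicate 3 the differences were 1.80 for MARC2 and 0.42 for MARC1.

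**Figure D1:**
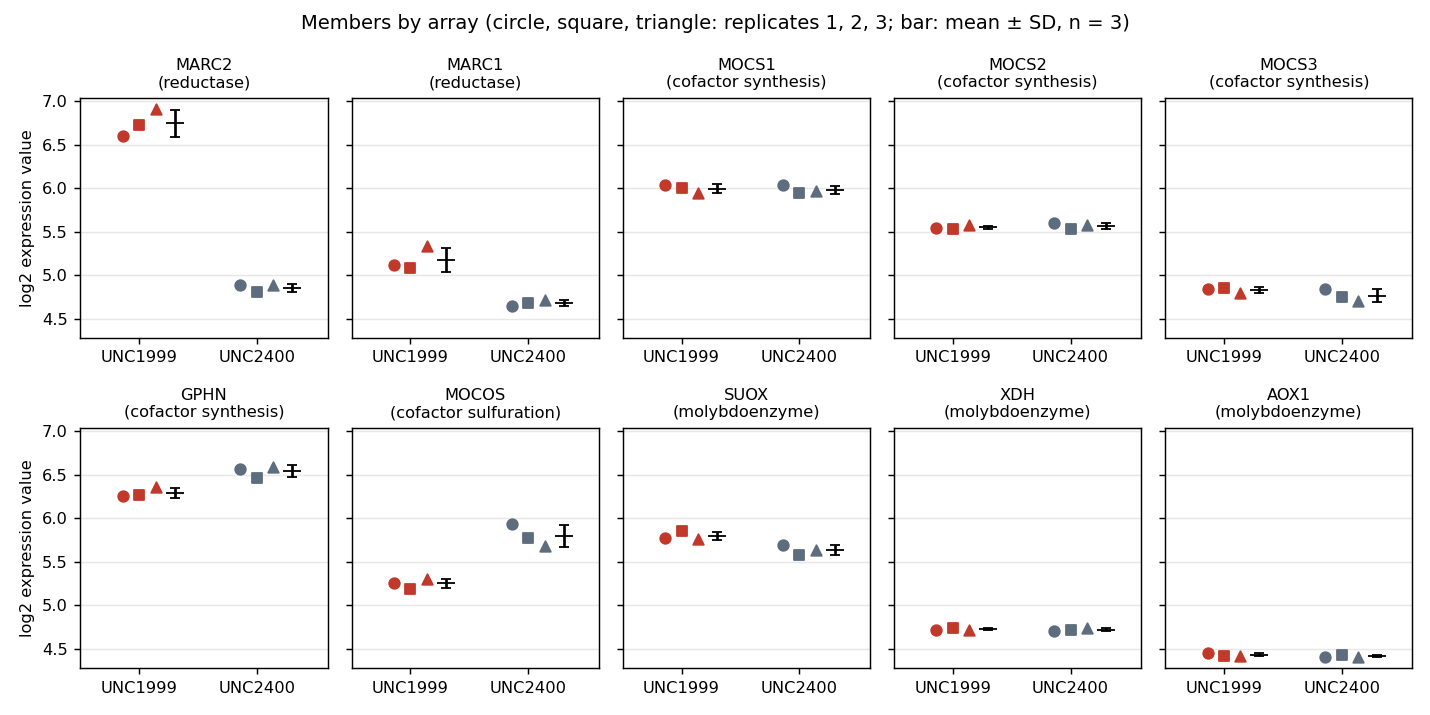
Log2 expression values (vertical axis) of the 10 genes in the 3 UNC1999 arrays (red) and the 3 UNC2400 arrays (grey), with the mean ± SD of each group (n = 3) as a bar beside the points. MARC2 and MARC1 stand higher and MOCOS and GPHN lower in all 3 UNC1999 arrays, while the groups overlap for XDH and AOX1. Panels are read within a gene, since signals of different rows on an array are not comparable.

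MARC2 and MARC1 lie next to each other on chromosome 1, in the same orientation and with 0 protein-coding genes between them. Their promoters are shown because the paralogues have separate start sites and were both higher with UNC1999. Each is the stretch from 250 bases before to 50 bases after the start in RefSeq (build GRCh38.p14, plus strand, 5′ to 3′), with CG dinucleotides in capitals. The first is chr1:220748072-220748371 and the second chr1:220786663-220786962.
MARC2: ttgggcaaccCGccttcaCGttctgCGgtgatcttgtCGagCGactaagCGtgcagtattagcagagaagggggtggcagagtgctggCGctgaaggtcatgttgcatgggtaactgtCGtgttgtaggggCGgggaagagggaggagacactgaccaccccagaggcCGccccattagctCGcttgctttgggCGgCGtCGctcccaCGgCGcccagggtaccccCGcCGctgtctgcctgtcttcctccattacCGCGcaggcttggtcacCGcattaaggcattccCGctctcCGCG
MARC1: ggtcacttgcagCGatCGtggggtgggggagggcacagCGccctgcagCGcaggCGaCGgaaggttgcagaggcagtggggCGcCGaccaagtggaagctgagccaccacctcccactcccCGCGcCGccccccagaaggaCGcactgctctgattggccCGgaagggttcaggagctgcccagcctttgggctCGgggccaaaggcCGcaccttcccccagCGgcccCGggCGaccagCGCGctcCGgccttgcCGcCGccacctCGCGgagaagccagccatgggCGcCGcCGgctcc

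Both promoters were rich in CG. MARC2 held 24 CG dinucleotides at 62.7% G and C, and MARC1 28 at 73.0%, against a median of 14 over 35116 promoters of the same length. At least as many CG were found in 33.9% of promoters for MARC2 and in 26.2% for MARC1, so neither count is rare. The arrays carry no measure of H3K27me3 or of binding at these sites.

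The locus around the pair was read through the 5 nearest protein-coding genes on each side that had a row of their own. Of these 10 neighbours, 1 was called higher and 1 lower in limma and 8 were not called, against 16.5% of all genes called in either direction. The kinase gene MARK1, second before MARC2, read 4.54, 4.52 and 4.56 with UNC1999 and 4.41, 4.42 and 4.44 with UNC2400, a rise of 0.12 (limma, adjusted p = 0.0201). Its signal is near the floor of the array, and the call was lost with any array but UNC1999 replicate 3 left out (adjusted p from 0.0504 to 0.0732). C1orf115, the gene directly before MARC2, averaged 5.39 with UNC1999 and 5.21 with UNC2400 (difference 0.18, 95% interval 0.01 to 0.34, limma adjusted p = 0.197). HLX, a homeobox gene directly after MARC1, differed by 0.10 (95% interval 0.03 to 0.17, limma adjusted p = 0.0914).

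The neighbour called lower was EPRS, the glutamyl-prolyl-tRNA synthetase and the outermost of the 5 genes before MARC2. It fell to 8.72, 8.78 and 8.90 with UNC1999, against 9.56, 9.61 and 9.36 with UNC2400 (difference -0.71, limma adjusted p = 0.00571). BPNT1, a nucleotide phosphatase, averaged 6.09 with UNC1999 and 6.30 with UNC2400 (limma adjusted p = 0.0506), and it was called lower when the arrays were quantile normalized again (adjusted p = 0.0298). IARS2, the mitochondrial isoleucyl-tRNA synthetase, differed by -0.10 (95% interval -0.25 to 0.05). DUSP10, HHIPL2, TAF1A and MIA3 on the other side had differences between -0.08 and 0.01, all with intervals that include 0.

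**Figure D2:**
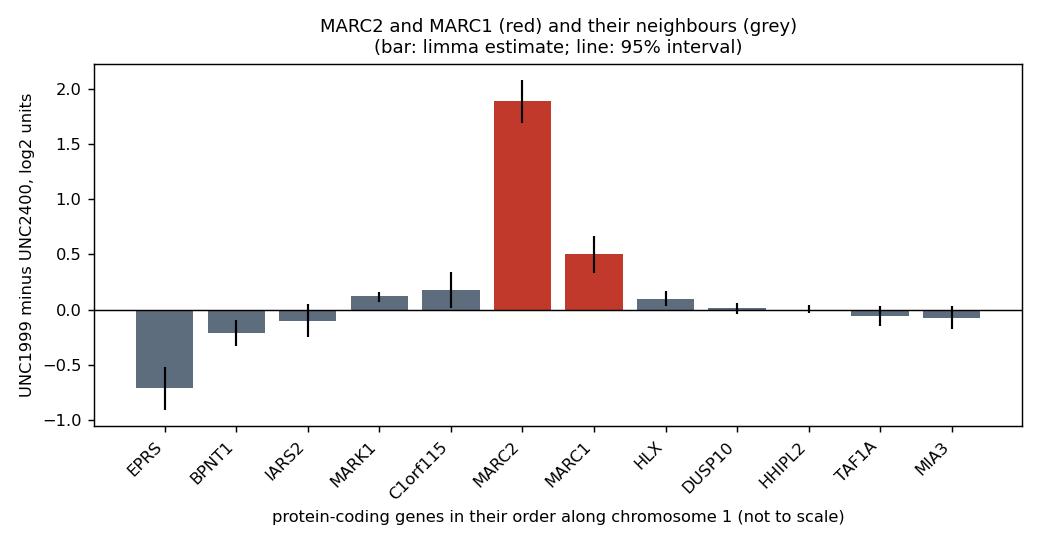
Difference between UNC1999 and UNC2400 in log2 units (bars, with 95% intervals from limma as lines) for MARC2, MARC1 (red) and their 10 neighbours (grey) in their order along chromosome 1, not to scale. The bar of MARC2 (1.89) is the tallest, MARC1 stands at 0.50, and the flanking genes range from -0.71 for EPRS, larger in size than the MARC1 difference, to 0.18 for C1orf115.

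The genes of cofactor synthesis did not follow the reductases. MOCS1, which makes the cyclic precursor, read 6.04, 6.00 and 5.94 with UNC1999 and 6.03, 5.94 and 5.97 with UNC2400. The groups overlapped, and the interval of the difference ran from -0.07 to 0.10. MOCS2, which encodes both subunits of molybdopterin synthase, read 5.54, 5.53 and 5.57 with UNC1999 and 5.60, 5.53 and 5.57 with UNC2400, also overlapping (interval -0.08 to 0.04). MOCS3, which hands sulfur to that synthase, read 4.84, 4.85 and 4.79 with UNC1999 and 4.84, 4.75 and 4.70 with UNC2400 (interval -0.03 to 0.16). Its row lay just below the median of all rows, so a change there could be compressed.

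GPHN, whose product inserts the metal and also anchors inhibitory receptors at synapses, was lower. It read 6.25, 6.27 and 6.36 with UNC1999, against 6.57, 6.46 and 6.59 with UNC2400. The groups were separated by 0.10, about as much as the spread within each (0.11 with UNC1999 and 0.13 with UNC2400). The difference was -0.25 (95% interval -0.36 to -0.13), or 1.19-fold lower with UNC1999. It is the least stable of the 4 calls described here: it was lost without UNC1999 replicate 1, UNC1999 replicate 2, UNC2400 replicate 1 or UNC2400 replicate 3, although the difference itself stayed between -0.29 and -0.22.

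MOCOS, which attaches the terminal sulfur to the cofactor of XDH and AOX1, showed the largest fall of the set. It read 5.26, 5.19 and 5.30 with UNC1999, against 5.93, 5.77 and 5.68 with UNC2400. No arrays overlapped, the nearest being 0.38 apart, and the UNC2400 arrays were the more spread (0.26, against 0.11 with UNC1999). Means of 5.25 ± 0.06 in the UNC1999 arrays and 5.79 ± 0.13 in the UNC2400 arrays (SD, n = 3) gave a difference of -0.54 (95% interval -0.72 to -0.37), or 1.46-fold lower. The MOCOS promoter is shown for comparison with those of the reductases (RefSeq, GRCh38.p14, chr18:36187247-36187546, plus strand, 5′ to 3′, CG in capitals).
MOCOS: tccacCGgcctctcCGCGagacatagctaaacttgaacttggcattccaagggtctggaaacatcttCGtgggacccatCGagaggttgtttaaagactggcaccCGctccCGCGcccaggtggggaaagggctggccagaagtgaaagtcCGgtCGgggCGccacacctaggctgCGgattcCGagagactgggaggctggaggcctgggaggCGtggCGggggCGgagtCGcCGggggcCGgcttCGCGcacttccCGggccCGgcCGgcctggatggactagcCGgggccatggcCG

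It held 26 CG dinucleotides at 67.0% G and C, between the counts of MARC2 and MARC1. A CG-rich start was found in members that were higher, lower or not called. GPHN (30), also lower, and MOCS2 (27) and AOX1 (22), not called, lay above the median of 14 too. SUOX (11) and XDH (3), not called, lay below it.

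The other molybdoenzymes showed small differences or none that could be read. SUOX, which oxidises sulfite to sulfate in the mitochondrial intermembrane space, read 5.77, 5.85 and 5.76 with UNC1999, against 5.69, 5.58 and 5.64 with UNC2400. Every UNC1999 array was above every UNC2400 array, by 0.07 at the nearest, and the difference was 0.16 (95% interval 0.06 to 0.26). It was not called at the adjusted threshold. For scale, all 3 UNC1999 arrays stood above all 3 UNC2400 arrays in 24.1% of genes and below them in 13.7%.

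XDH, which makes uric acid from xanthine, read 4.72, 4.74 and 4.72 with UNC1999 and 4.70, 4.72 and 4.74 with UNC2400. AOX1, which oxidises aldehydes and nitrogen heterocycles, read 4.45, 4.42 and 4.42 with UNC1999 and 4.41, 4.43 and 4.41 with UNC2400. Both overlapped, both rows lay below the median of all rows, and both intervals ran from -0.03 to 0.05. Whether these genes are silent in INA-6 or only too dim for the array cannot be told from such values. MOCOS was therefore lower beside a pair of client enzymes that gave no readable signal change.

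Counted by the fit across all 65529 rows, 2 of the 10 genes were called higher (MARC2 and MARC1) and 2 lower (MOCOS and GPHN), and 6 were not called. Of all genes, 9.16% were called higher and 7.32% lower, and of all rows 9.39% were called, 4.99% higher and 4.4% lower. Since the set was chosen with this comparison known, nothing is read from that contrast. The median difference of the 10 genes was 0.01, as was that of all genes. The methods name a fold of 1.5 and a p no higher than 0.02, and do not say whether that p was adjusted. With the unadjusted p of limma taken here, only MARC2 remained, against 0.908% of genes higher and 1.47% lower.

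**Figure D3:**
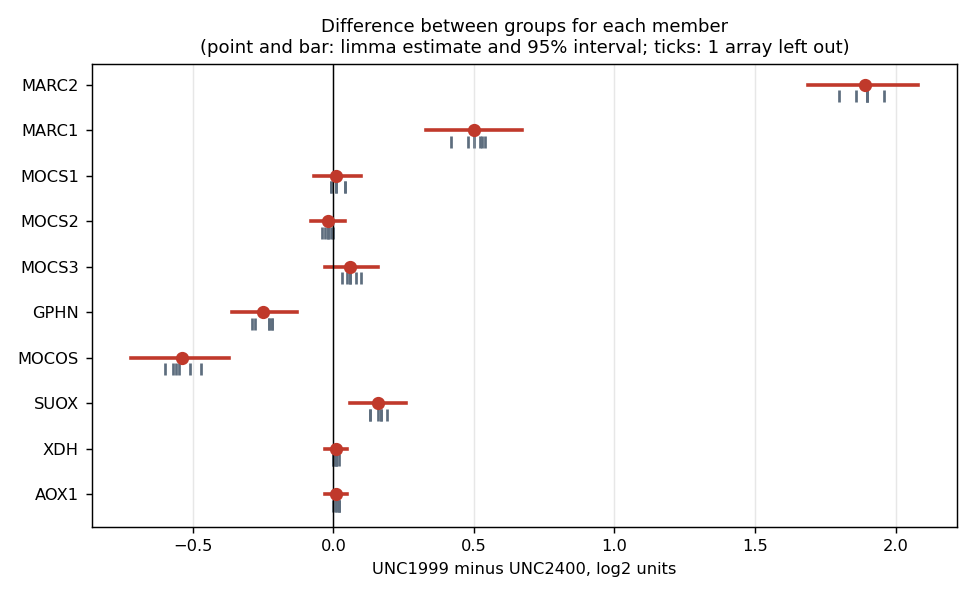
Difference between UNC1999 and UNC2400 in log2 units for the 10 genes (points, with 95% intervals from limma as red lines) and the same difference with each array left out in turn (grey ticks). The ticks of MARC2 stay between 1.80 and 1.96 and those of MOCOS between -0.60 and -0.47, while MOCS1, MOCS2, XDH and AOX1 lie close to 0.

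The promoters of all 10 genes were compared as a property that the choice of genes did not use. CG counts ran from 3 in XDH and 11 in SUOX to 30 in GPHN, with 27 in MOCS2, 22 in AOX1, 17 in MOCS3 and 7 to 27 in the 3 listed starts of MOCS1. The E-box CACGTG was found once, in AOX1, and occurs in 7.26% of promoters. TGATGNAA (3.62% of promoters) and the interferon-stimulated response element (3.57%), searched on both strands like the E-box, were found in none of them. The E-box itself contains a CG. A missing match says only that these letters are absent from this window.

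Genes that work with the set were taken from 6 lists, of which 51 genes were analysed here. In limma 6 of the 51 were higher, 6 lower and 39 not called, against 9.16% of all genes higher and 7.32% lower. At an unadjusted p under 0.05 there were 23 of the 51, against 32.7% of all genes. These shares include dim rows, while many of the listed genes read above the median of all rows (4.85). With rows left out whose mean lay below 4.85 in both groups, 6912 rows were called, against 6154 when all rows were fitted. These counts are over unlike numbers of rows. Since fewer rows were fitted without the dim ones, the share called was larger there than the 9.39% of all rows. The shares are therefore a rough scale for these lists.

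The electron chain that feeds MARC and takes electrons from SUOX held 7 genes, 0 of them called in limma (1 at an unadjusted p under 0.05). CYB5B, the outer-membrane cytochrome b5 that serves the MARC proteins, read 7.09, 7.15 and 7.22 with UNC1999 and 7.26, 7.22 and 7.18 with UNC2400. CYB5R3, its reductase, read 7.74, 7.69 and 7.60 with UNC1999 and 7.72, 7.62 and 7.70 with UNC2400. Both overlapped, with intervals of -0.17 to 0.03 and -0.12 to 0.10. The largest differences of the list were those of CYB5R4 (-0.20, limma adjusted p = 0.0899) and CYB5R1 (0.12, limma adjusted p = 0.305).

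The supply of iron-sulfur clusters and sulfur, which MOCS1 and MOCS3 draw on, had 7 measured genes and 0 calls in limma (also 0 at an unadjusted p under 0.05). The cysteine desulfurase NFS1 differed by -0.03, with a 95% interval of -0.10 to 0.04. The ubiquitin-like sulfur carrier URM1 and the sulfurtransferase MPST had the largest differences, 0.09 and 0.07. Of the synaptic partners of gephyrin, 3 were measured and 0 called (0 at an unadjusted p under 0.05). NLGN2 differed by 0.11 and GLRB by 0.01, and all 3 read between 4.35 and 5.71.

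Breakdown of cysteine and sulfide, which yields the sulfite that SUOX removes, had 1 of 7 genes called in limma (4 at an unadjusted p under 0.05). ETHE1, the mitochondrial persulfide dioxygenase, rose to 7.38, 7.26 and 7.29 with UNC1999, against 6.92, 6.92 and 6.89 with UNC2400. The groups were 0.34 apart, and the difference of 0.40 (95% interval 0.32 to 0.49, limma adjusted p = 0.00275) was called with each array left out. TST, a sulfurtransferase that acts beside it, had a difference of 0.20 (limma adjusted p = 0.127), and CDO1, the dioxygenase that starts cysteine oxidation, one of 0.04.

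The list for purine breakdown towards xanthine, upstream of XDH, had 2 of 8 genes lower and none higher in limma (5 at an unadjusted p under 0.05). It also held HPRT1 and APRT, which salvage purine bases and are not steps of breakdown. Neither was called, with differences of -0.26 for HPRT1 (limma adjusted p = 0.0707) and -0.05 for APRT. ADA, adenosine deaminase, fell to 7.22, 7.16 and 7.15 with UNC1999, against 8.23, 8.02 and 8.06 with UNC2400. The difference was -0.93 (95% interval -1.07 to -0.79, limma adjusted p = 0.00131), or 1.90-fold, with 0.81 between the nearest arrays. AMPD2, an AMP deaminase, averaged 7.56 with UNC1999 and 7.84 with UNC2400 (difference -0.28, limma adjusted p = 0.0151), a call lost without UNC1999 replicate 2 (adjusted p = 0.061) or UNC2400 replicate 1 (0.0598). PNP, which releases hypoxanthine and guanine, differed by -0.10 (limma adjusted p = 0.108), and GDA, which makes xanthine from guanine, read between 4.38 and 4.40 on all 6 arrays.

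Other proteins of the outer mitochondrial membrane moved both ways, with 5 of 19 higher, 4 lower and 10 not called in limma (13 at an unadjusted p under 0.05). CPT1A, which commits fatty acids to mitochondrial import, rose to 8.28, 8.32 and 8.51 with UNC1999, against 7.61, 7.48 and 7.46 with UNC2400 (difference 0.85, limma adjusted p = 0.0027). SAMM50, of the sorting and assembly machinery, was higher by 0.37 (limma adjusted p = 0.00179), and ACSL1, an acyl-CoA synthetase, by 0.12 (limma adjusted p = 0.0116). ACSL1 is a dim row, at 4.77 with UNC1999 and 4.64 with UNC2400, below the median of all rows (4.85). Its call was lost with the replicate number as a block in the fit (limma adjusted p = 0.0509). The import channel TOMM40 was higher by 0.31 (limma adjusted p = 0.0127), while the import receptor TOMM20 was lower by 0.50, at 7.81 with UNC1999 and 8.31 with UNC2400 (limma adjusted p = 0.0142). Both TOMM calls were lost without UNC1999 replicate 1 (0.053 for TOMM40 and 0.0575 for TOMM20) or replicate 2 (0.0569 and 0.0532).

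The remaining calls of that list concerned mitochondrial fusion and transport and the anion channel. MFN1, RHOT1 and VDAC1 were lower by 0.31, 0.26 and 0.17 (limma adjusted p = 0.0168, 0.0212 and 0.0329), and RHOT2, named after its value was seen, was higher by 0.19 (limma adjusted p = 0.0255). Each of these 4 calls was lost when replicate 1 or replicate 2 of UNC1999 was left out, and also for at least 1 other array (adjusted p up to 0.119, for VDAC1).

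**Figure D4:**
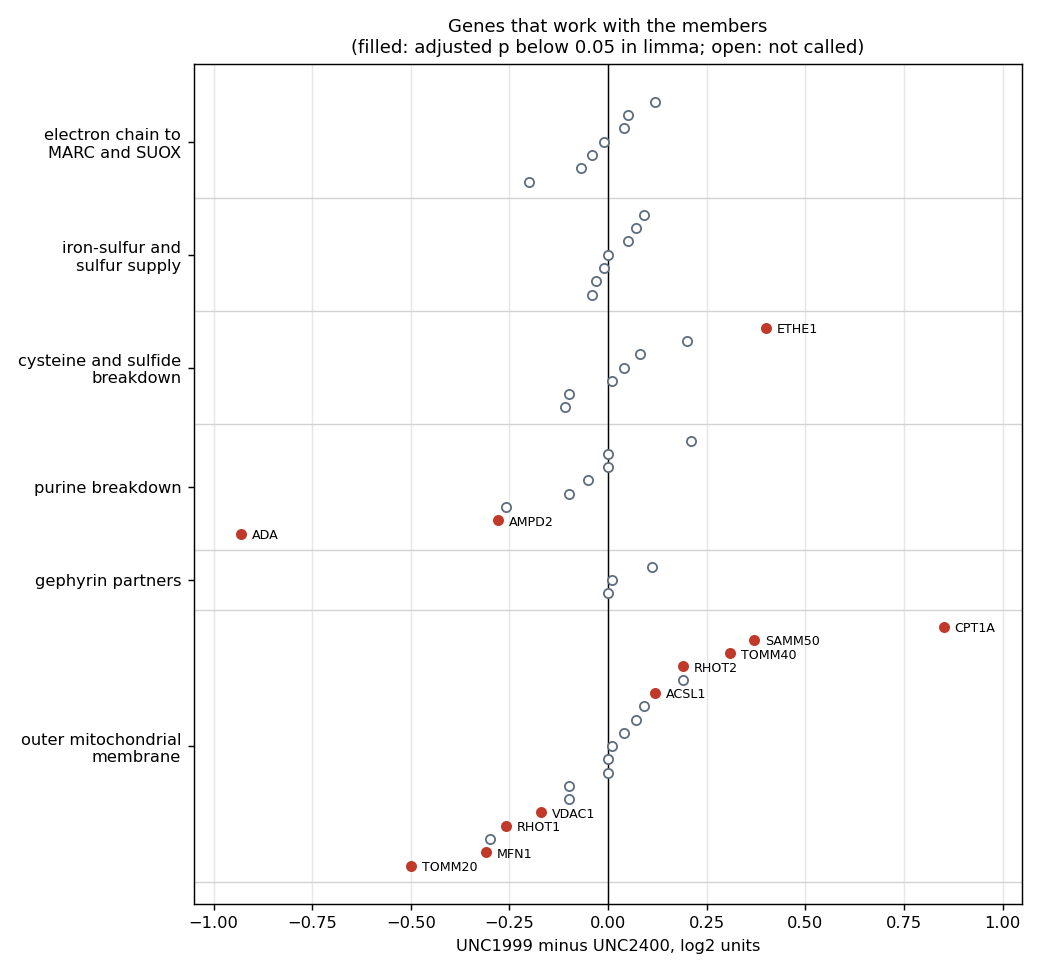
Difference between UNC1999 and UNC2400 in log2 units (horizontal axis) for the 51 measured genes of the 6 lists, 1 point per gene, filled and named where the adjusted p in limma was below 0.05. No gene of the electron chain, of sulfur supply or of the gephyrin partners is filled, and the largest filled differences are those of ADA (-0.93) and CPT1A (0.85).

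The 5 genes whose profile over the 6 arrays was most like that of MARC2 were KIT, DOCK10, SSBP3, LGALS14 and MYOF. Likeness was the root mean square difference of values centred on the mean of each gene, among 297 genes that spanned at least 1 log2 unit, a span that MARC1 did not reach. KIT, a receptor tyrosine kinase, was the closest (0.074), with 6.42, 6.52 and 6.83 with UNC1999 and 4.82, 4.81 and 4.84 with UNC2400. DOCK10, an exchange factor for small GTPases, followed at 0.197, the single-stranded DNA-binding protein SSBP3 at 0.213, the galectin LGALS14 at 0.231 and the membrane protein MYOF at 0.248. UNC1999 replicate 3 was the highest array in each of them, as in MARC2, though for SSBP3 only at 8.53 against 8.52 in UNC1999 replicate 2. Choice by likeness to MARC2 favours such a shared order, so nothing is read from it. The 5 genes have rises of similar size, and the ranking over 6 arrays in a pair of groups is a description.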

How the data were processed

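The deposited table holds log2 expression values that the authors made from Affymetrix arrays with GeneSpring, already summarised to 1 value per row and, from their near-equal array medians, normalized. How probes were summarised, how the background was corrected and which genome build was used is not given in the sources used here. It has 65529 rows for 6 samples, with 0 columns of other samples. Identifiers look like those of junctions and probe regions, and each row was taken as 1 transcript cluster and named through the platform annotation (23129 rows with 1 symbol, 1221 with several, 41179 with none). Symbols were updated through the RefSeq gene table of GRCh38 (2540 updated, 74 kept as given). A gene on several rows was represented by the row with the highest mean.

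UNC1999 was compared with UNC2400 by limma (version 3.58.1, R 4.3.3), lmFit and eBayes over all rows with no term but the group, as a two-sided test, with p-values adjusted over all rows by Benjamini-Hochberg and a threshold of 0.05. A gene past it is said to be called. Intervals are 95% intervals of that fit. Its calls were tested on simulated data with equal spread in both groups, which does not check the intervals. Precision is limited by the number of arrays, 3 in each group. Where replicates are technical in part, p-values measure only the spread between these samples.

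The members and the gene lists were chosen with earlier results of these data known. The genes named are all 10 members, all neighbours, up to 4 called genes per list and direction (or the 2 with the largest difference) and the 5 genes most like MARC2. Outside this rule, SDC1, CD3E, RHOT2, NFS1, CYB5B, CYB5R3, CDO1, TST, PNP, GDA, HPRT1 and APRT were chosen after their values were seen. Alternatives were a replicate block, each array left out, dim rows left out, quantile and cyclic loess normalization, a trended variance, the thresholds of the methods, and the mean of all rows of a gene.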

Additional observations from a re-analysis of the deposited data

How the results depend on the processing

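MARC2, MARC1, MOCOS and GPHN kept their direction under all 11 alternatives that gave their differences. In that order, the differences ranged over 1.80 to 1.96, 0.42 to 0.54, -0.60 to -0.47 and -0.29 to -0.22. Only quantile and cyclic loess normalization could have reversed a direction. A replicate block, a trended variance and the dropping of dim rows leave a difference unchanged. Groups that do not overlap keep their direction with 1 array left out. With 1 array left out, 2 members stayed higher each time, 1 to 2 were lower, 4 to 8 of the partner genes were higher and 1 to 8 lower, 1 to 2 neighbours were called, and 2914 to 6513 of 65529 rows were called (6154 with all arrays). MARC1 kept its call narrowly without UNC2400 replicate 1 (limma adjusted p = 0.0497). So did MOCOS without UNC1999 replicate 2 (limma adjusted p = 0.0443). The member that lost its call in these fits was GPHN, without UNC1999 replicate 1 or 2 or UNC2400 replicate 1 or 3. The lowest values came without UNC1999 replicate 2 for rows (2914) and for lower partner genes (1), and without UNC1999 replicate 1 (3559 rows, 2 lower partner genes), UNC2400 replicate 1 (3674 rows) or UNC2400 replicate 3 (3 lower partner genes) the counts also fell by more than 1.5 times. At the thresholds of the methods, 1 member was higher and 0 lower (limma, against 3 higher and 2 lower at an unadjusted p under 0.05 alone), 1 partner gene was higher and 1 lower, 1 neighbour and 1072 rows were called. Neighbours called numbered 4 with quantile normalization and 4 with cyclic loess, where BPNT1 and HLX were added to MARK1 and EPRS.

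Deviations of equally numbered arrays correlated at 0.0554, 0.0834 and -0.0121 for numbers 1, 2 and 3. Those of unequally numbered arrays correlated at -0.0789 to 0.0331. With 3 arrays in each group this cannot decide whether equal numbers mark pairs. The main fit did not take them as pairs. With the replicate number as a block, 2 members were higher and 2 lower, 2 neighbours (EPRS and BPNT1, adjusted p = 0.0455, with MARK1 lost at 0.0634) and 4262 rows were called, and 4 partner genes were higher and 2 lower, against 6 and 6 without it. MOCS3, XDH and AOX1 were left out when dim rows were dropped.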
